A study of Gallus gallus with 6 samples.

Results

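The SOX and forkhead (FOX) genes of the chick lens were examined at 1 h after cataract surgery wounding, against the time of wounding. The members were taken by symbol from a deposited table of 17262 genes: a symbol of SOX followed by a number, or of FOX followed by a class letter from A to R and a number, leaving out SOX1, SOX2 and FOXE3. This gave 28 genes, 9 SOX and 19 forkhead, of which 18 (4 SOX and 14 forkhead) had 10 or more raw counts in at least 3 libraries and are described here. No row of the table carried the symbol FOXE3. The 1 h group held 3 libraries of wounded explants. For this time point the paper describes further cuts into the equatorial epithelium, made so that the explant could be flattened. These explants were then kept in serum-containing medium for that hour. The time 0 group held 3 libraries of explants collected directly after wounding. Every library, in both groups, pooled 6 explants of chick embryos at day 14, each explant being the lens capsule with its equatorial epithelium and resident immune cells after the central epithelium and the fiber cell mass had been removed. No strain or genotype is labelled. Time after wounding cannot be told apart from the further cuts, the flattening and the culture in serum. The labels call the libraries biological replicates without saying from which embryos they came, so p-values measure the spread between these libraries. In bulk RNA, fewer cells of a type and less RNA per cell cannot be told apart.

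SOX proteins bind DNA through a high mobility group (HMG) box related to that of the sex determining factor SRY, and forkhead proteins through a winged-helix domain. Both families hold factors that set cell identity during development, among them SOX2, SOX1 and FOXE3 in the lens, and factors that respond to signals. The FOXO class is the best known signal-responsive one. When growth factors activate PI3K and AKT, AKT phosphorylates FOXO proteins and they leave the nucleus, and when that signal falls they return and switch on genes for cell cycle arrest, stress resistance and nutrient use.

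In each library between 13733581 and 17673955 reads were counted on genes, and levels are given as CPM, the count scaled to a common library size. A count of 3, the floor used for counting error only, corresponded to between 0.175 and 0.221 CPM. The TMM factors of edgeR that enter this scaling lay between 0.969 and 1.03. As to the tissue, all 7 lens epithelium markers found in the table were counted well enough for a test, with a sum between 4154 and 4218 CPM at 1 h and between 4126 and 4201 CPM at time 0. Within that sum PAX6 and SIX3 were called higher at 1 h, GJA1 was called lower, and 4 markers were not called. PAX6 had 919 CPM at 1 h and 597 CPM at time 0, and GJA1 had 2248 CPM at 1 h and 2624 CPM at time 0. The sum of 13 fiber cell markers was between 40740 and 44070 CPM at 1 h and between 54160 and 60170 CPM at time 0, with 9 of them called lower at 1 h and PROX1 higher. Of 9 resident immune cell markers 5 were tested, of which IRF8 and CD83 were higher and PTPRC, CSF1R and LAPTM5 were not called. Their sum, between 177 and 255 CPM at 1 h and between 10.6 and 15.0 CPM at time 0, was mostly IRF8, with 210 CPM at 1 h and 8.68 CPM at time 0, whereas CSF1R had 1.05 CPM at 1 h and 1.88 CPM at time 0. The part of these markers in the results was not tested. Single libraries also held more RNA of some genes known from other tissues than the rest. All 10 neural retina markers were highest in 1 h replicate 3, where NEUROD1 had 82 counts, against 1 and 0 in 1 h replicates 1 and 2 and 0 in every time 0 library. HBA1, a blood hemoglobin gene, had 309 counts in 1 h replicate 1, against 0 and 3 in the other 1 h libraries and 29 to 44 at time 0. COL9A1, a cartilage collagen gene, had 357 counts in time 0 replicate 2, against 3 to 21 at 1 h and 89 and 29 in the other time 0 libraries. COL9A3, another cartilage gene, followed, with 44, 260 and 25 counts in time 0 replicates 1, 2 and 3. COL2A1 and MATN1 did not. In time 0 replicates 1, 2 and 3 COL2A1 had 3455, 4134 and 4122 counts, and MATN1 had 27, 22 and 24. Time 0 replicate 2 was the highest library for 2 of 6 cartilage genes and for 3 of 9 markers of periocular mesenchyme and fibroblasts. COL1A1, 1 of those markers, had 15, 119 and 10 counts at time 0.

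Of the 18 genes, 11 were higher at 1 h and 0 were lower by the quasi-likelihood method of edgeR. A call means an adjusted p (Benjamini-Hochberg) under 0.05, taken over the 12391 genes of the table that passed a filter on low counts. Of all these genes, 19.8% were called higher and 12.0% lower, 31.8% in either direction. Without adjustment of p, 12 members were higher (24.2% of all genes were) and 0 lower (18.6%), and DESeq2's Wald test gave 11 and 0 (16.4% and 9.92% of the genes it tested). The higher members were SOX4 and SOX9 among the SOX genes and FOXJ1, FOXK2, FOXL2, FOXN2, FOXN3, FOXO3, FOXP2, FOXP3 and FOXP4 among the forkhead genes. The log2 fold change was at least 1 in 5 of them, FOXJ1, FOXL2, FOXN2, SOX4 and FOXO3, as in 6.46% of all genes. The median log2 fold change of the 18 members was 0.69, and that of all genes tested was -0.01. FOXJ1 and FOXL2 met the count rule through the 1 h libraries alone and therefore had to differ. Of the 16 members that met it in libraries of both time points, 9 were higher and 0 lower, 3 with a log2 fold change of at least 1, and the median was 0.62. The same 11 genes were called without 1 h replicate 3, the library with retina markers, and, with FOXJ2 added, without 1 h replicate 1, the library with hemoglobin. SOX9 and FOXP4 were lost when time 0 replicate 2, which had the most COL9A1 counts, was left out, and 9 were called. The log2 fold changes were then 0.71 for SOX9 and 0.40 for FOXP4, against 0.87 and 0.45 with all libraries. SOX9 was also lost without time 0 replicate 3 and without 1 h replicate 2, where 10 were called each time. The part of the COL9A1 signal in these losses was not tested.

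**Figure D1:**
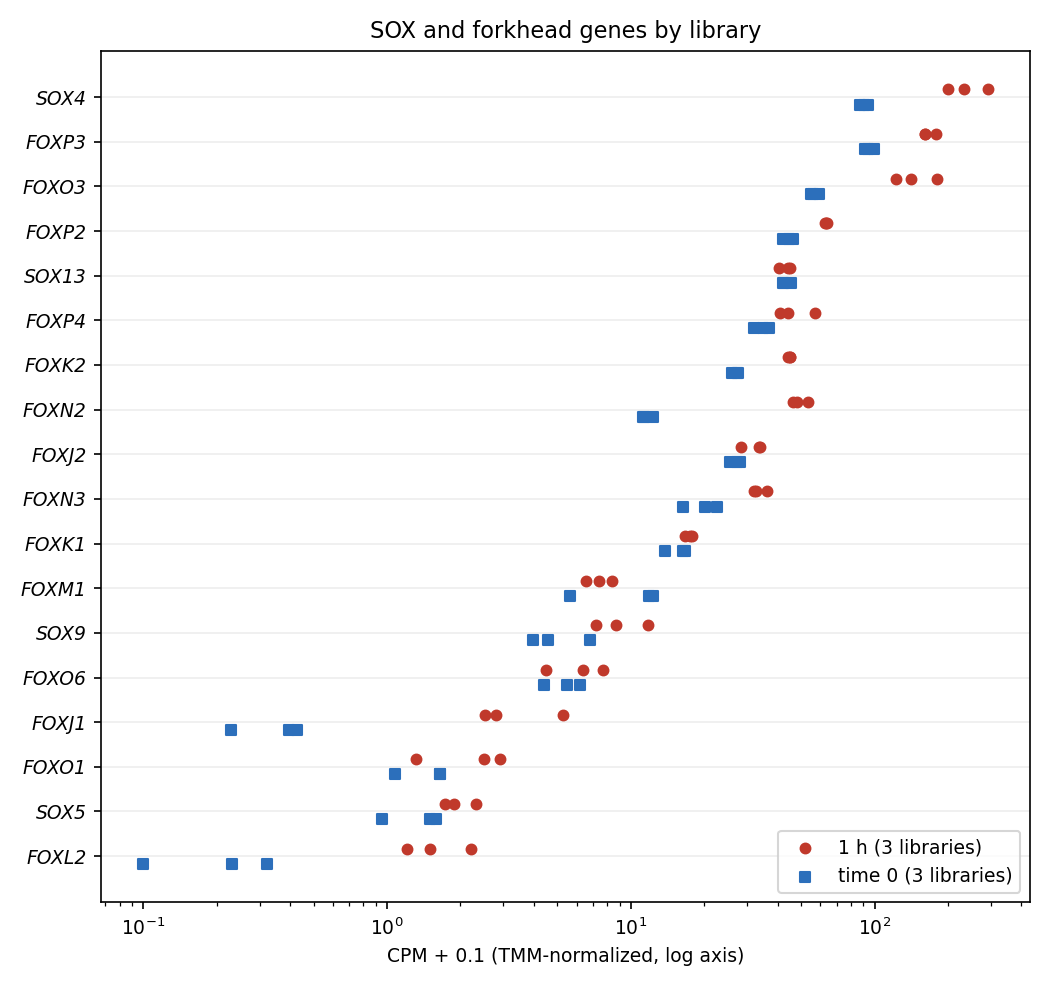
TMM-normalized CPM plus 0.1 (log axis) of the 18 SOX and forkhead genes that met the count rule, with 1 point for each library, 1 h above time 0 in each row. All 1 h points lie to the right of all time 0 points in 13 of the 18 genes, or 11 of the 16 that met the rule at both time points (25.4% of all genes tested), and to the left in 0 (21.4%).

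Among the 9 SOX members, which leave out SOX1 and SOX2, SOX4 was by far the most abundant. It belongs to the SOXC group, which is active in progenitor cells of many embryonic tissues. The deposited table places it on chromosome 2 from 58890036 to 58891801 (ENSGALG00000036497, genome build not stated), and its listed length of 1766 bases fills that whole span. SOX4 had 201, 291 and 233 CPM in 1 h replicates 1, 2 and 3, against 94.2, 90.2 and 87.2 CPM at time 0. The groups did not overlap, and the 1 h libraries were spread more widely, with a coefficient of variation of 18.9% against 3.88% at time 0. In the edgeR fit it gained 1.41 on the log2 scale (SE 0.12, adjusted p = 7.33e-06), a 2.67-fold increase, and omitting any 1 library left it between 1.25 and 1.51. As CPM per kilobase of gene length (RPKM), the scale on which genes are compared here, SOX4 had 137 ± 25.8 at 1 h and 51.3 ± 1.99 at time 0 (SD, n = 3 libraries each), the highest level of all members. It made up 86.9%, 88.8% and 86.5% of the RPKM of all 9 SOX members in the 1 h libraries, against 76.3%, 76.2% and 76.6% at time 0.

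SOX9, a SOXE factor that drives cartilage formation and acts in neural crest and epithelial progenitors, was a weakly expressed member. It had 7.11, 11.6 and 8.59 CPM at 1 h, against 6.71, 3.88 and 4.46 CPM at time 0. The groups did not overlap, but 1 h replicate 1 and time 0 replicate 1 lay close together. edgeR put its log2 fold change at 0.87 (SE 0.24, adjusted p = 0.0175). The call was lost without time 0 replicate 2 (adjusted p = 0.0696), without time 0 replicate 3 (0.0682) and without 1 h replicate 2 (0.0755), with adjusted p-values between 0.00677 and 0.0755 over all alternatives, DESeq2 included. SOX proteins can bind beta-catenin, the partner of TCF and LEF factors. Of 5 genes of that group, 2 were higher (19.8% of all genes were) and 0 were lower (12.0%). The higher ones were TCF7L2 and TCF7L1, with log2 fold changes of 0.53 and 0.33. Only 1 was higher with DESeq2, without a filter, or with any single library left out, and upper-quartile scaling gave 1 higher and 2 lower. So few genes do not set the group apart from all genes. Cartilage matrix genes are known targets of SOX9, SOX5 and SOX6 in chondrocytes. Of 6 such genes found in the table, 4 were tested and 0 were called in either direction by edgeR at the adjusted threshold, while 2 were lower at an unadjusted p under 0.05 and DESeq2 called 2 of 5 lower. The count of lower ones was 2 without time 0 replicate 3 and 1 without time 0 replicate 2 or with upper-quartile scaling. The median log2 fold change of the 4 was -1.70, and -0.96 without time 0 replicate 2. That library had 357 COL9A1 and 260 COL9A3 counts, against 89 and 44 in time 0 replicate 1 and 29 and 25 in time 0 replicate 3. With all libraries COL9A1, COL9A3 and MATN1 had log2 fold changes of -4.06, -2.54 and -0.85, with every 1 h library below every time 0 library (as in 21.4% of all genes). COL2A1, the most abundant one in these explants, had 287 ± 8.39 CPM at 1 h and 264 ± 8.19 CPM at time 0 (SD, n = 3 libraries each), with an adjusted p of 0.189 in the edgeR test. For COL2A1 every 1 h library lay above every time 0 library (as in 25.4% of all genes).

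SOXD proteins lack a transactivation domain of their own and act with other factors. SOX13, a SOXD gene, had 40.4, 44.1 and 44.9 CPM at 1 h, against 42.4, 45.4 and 42.1 CPM at time 0. The groups overlapped, and the log2 fold change of -0.01 had a 95% interval of -0.18 to 0.17. At 12.4 ± 0.688 RPKM at 1 h and 12.4 ± 0.519 RPKM at time 0, SOX13 was the second most abundant SOX member. SOX5, of the same group, had 25, 28 and 38 counts at 1 h and 19, 23 and 13 counts at time 0. Its groups did not overlap, but the log2 fold change of 0.60 (95% interval -0.13 to 1.32, adjusted p = 0.193 in the edgeR test) did not pass, and its highest library was 1 h replicate 3.

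The other 5 SOX members did not meet the count rule. SOX8, a SOXE gene like SOX9, had 7, 14 and 15 counts at 1 h and 0, 1 and 0 counts at time 0. Summed over libraries the ratio was 33.1, with a 95% counting interval (Clopper-Pearson) of 5.58 to 1345. In the edgeR fit without a filter on low counts, which called 14.1% of all genes with counts higher and 9.59% lower, its adjusted p was 0.00151, and it was 0.00795 when 1 h replicate 3 was also left out. SOX21, a SOXB2 repressor of neural progenitor genes, had 9, 6 and 22 counts at 1 h and 1, 2 and 3 counts at time 0, with the most in 1 h replicate 3. Its adjusted p of 0.0221 in the fit without a filter became 0.215 without that library, which also held the retina markers, and its log2 fold change became 1.76 from 2.40. The part of those markers was not tested. SOX6 had 1 to 3 counts at 1 h and 0 at time 0, and SOX17 and SOX18, both known from vascular endothelium, had no more than 2 counts in any library. SOX6 did not overlap between the groups, and in the fit without a filter its unadjusted p was 0.0453 and its adjusted p 0.137. A change in SOX17 or SOX18 was not detectable at this depth. Of 6 endothelial markers in the table only KDR was tested, and it was higher, with 287, 292 and 445 counts at 1 h and 75, 120 and 130 at time 0. The other 5 were sparse and did not move together. TIE1 had 7, 3 and 5 counts at 1 h and 0, 2 and 0 at time 0. CDH5 had 4, 0 and 1 counts at 1 h and 0, 1 and 0 at time 0. TEK had 4, 2 and 2 counts at 1 h and 2, 3 and 5 at time 0. EGFL7 had 2, 7 and 14 counts at 1 h and 4, 7 and 8 at time 0, and ERG had 0, 0 and 1 at each time point. The part of these markers in the counts of SOX17 and SOX18 was not tested.

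FOXO3 was the main FOXO gene of the explants. It is placed on chromosome 3 from 67292563 to 67374494 (ENSGALG00000015297). FOXO3 had 140.5, 123 and 180.4 CPM at 1 h, against 54.8, 58.9 and 56.0 CPM at time 0. The groups lay far apart, and 1 h replicate 3 stood above the other 1 h libraries. In the edgeR fit it gained 1.39 on the log2 scale (SE 0.13, adjusted p = 1.78e-05), a 2.61-fold increase, and was 1.199 without 1 h replicate 3, its lowest value with a library left out. FOXO1, the insulin-regulated FOXO of liver and many other tissues, had only 1.21 to 2.81 CPM at 1 h and 0.983 to 1.55 CPM at time 0, and its log2 fold change of 0.65 (95% interval -0.16 to 1.46) did not pass. FOXO6 had 4.37, 6.26 and 7.59 CPM at 1 h and 6.12, 5.37 and 4.33 CPM at time 0. These groups overlapped, with a log2 fold change of 0.21 (95% interval -0.29 to 0.71) that was -0.0047 without 1 h replicate 3. FOXO3 held 95.8%, 94.5% and 95.2% of the summed RPKM of these FOXO genes in the 1 h libraries, against 88.5%, 90.2% and 91.8% at time 0.

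The genes around FOXO were followed with lists of its upstream kinases and its known targets. Of 19 target genes found and tested, 13 were higher at 1 h (19.8% of all genes were) and 2 were lower (12.0%), with a median log2 fold change of 0.70. CDKN1A, an inhibitor of cyclin-dependent kinases, had a log2 fold change of 3.71, and PDK4, which holds back pyruvate oxidation, of 2.82. FBXO32, a muscle atrophy ubiquitin ligase, had 2.08, and the transcriptional repressor BCL6 had 1.89. CDKN1B, another cell cycle inhibitor, was the most abundant target, with 612 ± 39.8 CPM at 1 h and 337 ± 11.1 CPM at time 0 (SD, n = 3 libraries each). The lower targets were SESN3 and the peroxide-degrading enzyme CAT, with log2 fold changes of -0.47 and -0.28. Many of these genes also respond to other factors, so their change does not measure FOXO activity. Without 1 h replicate 3, 8 targets were higher and 1 was lower. Leaving out each other library gave 9 to 12 higher and 1 or 2 lower targets, 1 being lower without time 0 replicates 2 or 3 and without 1 h replicates 1 or 2. With upper-quartile scaling 9 targets were higher and 5 lower, where 1901 of all 12391 genes tested were higher and 3400 lower.

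Upstream, 21 genes of the PI3K-AKT route were tested, of which 11 were higher at 1 h (19.8% of all genes were) and 3 lower (12.0%), with a median log2 fold change of 0.21. The kinase gene SGK1, whose product phosphorylates FOXO proteins as AKT does, had 1643, 2125 and 3808 counts at 1 h and 11, 16 and 11 counts at time 0. Its log2 fold change of 7.49 (SE 0.47) was far above that of every other gene of the list. PDPK1, the kinase that activates AKT and SGK1, rose by 0.74 on the log2 scale, and the catalytic subunits PIK3CB and PIK3CA by 0.92 and 0.67. MTOR, PIK3R1 and SGK3 were lower, with log2 fold changes of -0.33, -0.69 and -0.28. AKT1, with a log2 fold change of -0.0032, and AKT2, with -0.14, did not pass. Here too the counts moved, to 7 higher and 1 lower without 1 h replicate 3 and to 9 and 0 without time 0 replicate 2. They were 10 and 1 without time 0 replicate 1. With upper-quartile scaling they were 8 and 7, where 1901 of all 12391 genes tested were higher and 3400 lower.

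**Figure D2:**
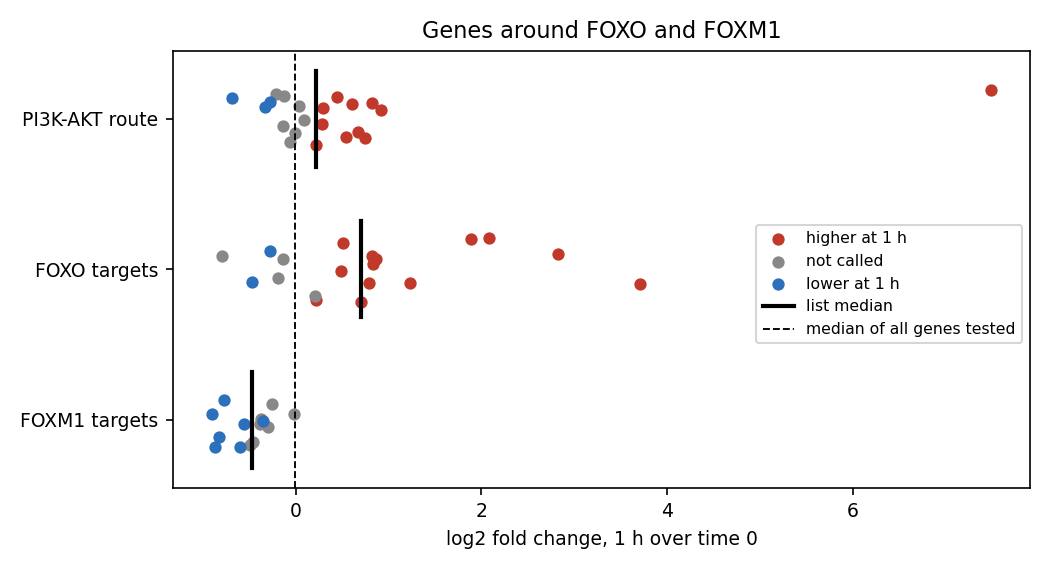
Log2 fold change (1 h over time 0) of every tested gene of 3 lists, with 1 point for each gene, the list medians as bars and the median of all genes tested as a dashed line. The FOXO targets have a median of 0.70 with 13 of 19 called higher (19.8% of all genes were). The PI3K-AKT route has a median of 0.21 with SGK1 alone at 7.49. The FOXM1 targets have a median of -0.48 with 7 of 14 called lower (12.0% of all genes were).

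The forkhead gene with the most precise large change was FOXN2, a little studied member of the FOXN class, on chromosome 3 from 9524890 to 9552231 (ENSGALG00000008942). FOXN2 had 46.3, 47.9 and 53.4 CPM at 1 h, against 11.1, 12.2 and 11.2 CPM at time 0. Both groups were tight and far apart. edgeR put the log2 fold change at 2.09 (SE 0.10, adjusted p = 1.4e-08), a 4.27-fold increase, and it lay between 2.01 and 2.14 with any 1 library omitted. FOXN3, a repressor linked to cell cycle checkpoints, had 31.9, 36.2 and 32.5 CPM at 1 h, against 16.3, 22.5 and 19.99 CPM at time 0. The groups did not overlap, and in the edgeR fit it gained 0.77 on the log2 scale (SE 0.12, adjusted p = 0.000418). On the RPKM scale FOXN2 had 13.9 ± 1.05 at 1 h and 3.24 ± 0.171 at time 0, and FOXN3 had 12.1 ± 0.838 at 1 h and 7.09 ± 1.13 at time 0 (SD, n = 3 libraries each). The difference between these genes at 1 h was no larger than the summed SDs. FOXN1, the thymic epithelium factor, had no more than 3 counts in any library.

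All 3 FOXP genes of the table were called higher at 1 h (19.8% of all genes were), each with a log2 fold change under 1. Proteins of this class act mainly as repressors and can pair with each other. The most abundant was the gene that the table labels FOXP3, on chromosome 12 from 16307942 to 16503337 (ENSGALG00000007769). The RefSeq transcript cited in its deposited description is listed under FOXP1 in the RefSeq gene table (assembly GRCg7b), which gives FOXP3 as a synonym. Its counts therefore cannot be read as those of the regulatory T cell factor FOXP3. It had 178, 161 and 161 CPM at 1 h, against 94.3, 91.4 and 99.3 CPM at time 0. edgeR put the log2 fold change at 0.81 (SE 0.07, adjusted p = 5.27e-06). PTPRC, the pan-leukocyte marker CD45, had 1.45 ± 0.721 CPM at 1 h and 0.901 ± 0.385 CPM at time 0 (SD, n = 3 libraries each), without a call.

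The FOXP2 locus holds a 38-base miRNA gene on the opposite strand that had 0 to 2 counts. FOXP2 had 63.3, 63.5 and 62.5 CPM at 1 h, against 44.6, 42.2 and 46.1 CPM at time 0. The 1 h libraries were nearly equal, with a coefficient of variation of 0.885%, and in the edgeR fit it gained 0.51 on the log2 scale (SE 0.07, adjusted p = 0.00023). FOXP4 had 56.9, 44.2 and 40.8 CPM at 1 h, against 36.8, 32.1 and 34.7 CPM at time 0. Its 1 h replicate 1 stood above the others. edgeR put the log2 fold change at 0.45 (SE 0.12, adjusted p = 0.0135), and the call was lost without time 0 replicate 2 (adjusted p = 0.0585). In RPKM the gene labelled FOXP3 had 72.4 ± 4.34 at 1 h and 41.3 ± 1.73 at time 0 (SD, n = 3 libraries each), at the 91.2 percentile of the genes tested. It made up 67.5% to 68.3% of the summed RPKM of the FOXP genes at 1 h and 62.0% to 63.3% at time 0.

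FOXK proteins repress autophagy genes and shift glucose use toward glycolysis in mammalian cells. FOXK2 had 44.9, 44.2 and 44.8 CPM at 1 h, against 27.2, 25.8 and 27.5 CPM at time 0. The libraries within each group were almost equal, and in the edgeR fit it gained 0.73 on the log2 scale (SE 0.08, adjusted p = 2.31e-05). Its paralog FOXK1 had 16.5, 17.8 and 17.5 CPM at 1 h and 16.2, 13.8 and 16.6 CPM at time 0. The FOXK1 groups overlapped by a single pair of libraries, and the log2 fold change of 0.15 had a 95% interval of -0.10 to 0.41. That interval lies below the 0.56 to 0.91 of FOXK2. The difference between the paralogs was not tested.

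**Figure D3:**
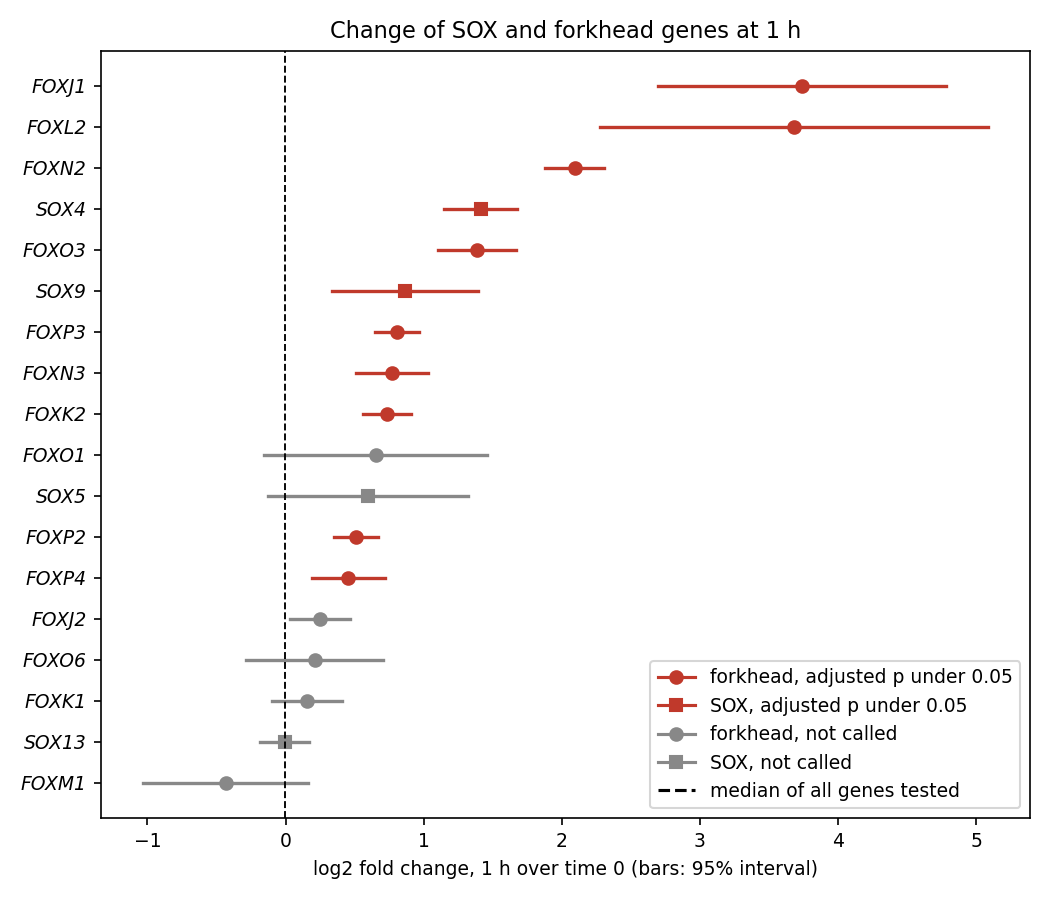
Log2 fold change (1 h over time 0) with its 95% interval for the 18 SOX and forkhead genes that met the count rule, from edgeR's quasi-likelihood fit. The 11 genes in red, from FOXJ1 at 3.74 to FOXP4 at 0.45, were called higher at 1 h (19.8% of all genes tested were). The 7 in grey, from FOXO1 at 0.65 to FOXM1 at -0.43, were not called. FOXJ1 and FOXL2 met the count rule through the 1 h libraries alone and had to differ, so their intervals are description only. Of the 16 members that met it at both time points, 9 were higher.

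FOXJ1 and FOXL2 had the largest fitted changes, on few counts. Both met the count rule through the 1 h libraries alone and so had to differ. Their p-values and intervals are therefore given as description only. FOXJ1, the master regulator of motile cilia, had 37, 81 and 46 counts at 1 h and 4, 2 and 5 counts at time 0. The 1 h libraries were well apart from those of time 0, with 1 h replicate 2 the highest. edgeR fitted a log2 fold change of 3.74 (SE 0.48, adjusted p = 9.53e-05). The ratio of the summed counts was 13.7, with a counting interval of 7.47 to 28.0. FOXL2, a factor of the ovary and the developing eyelid, had 17, 22 and 36 counts at 1 h and 3, 0 and 2 counts at time 0. The time 0 libraries were all at or below the floor of 3 counts, and 1 h replicate 3 was the highest. The ratio of sums was 13.8, with a counting interval of 5.66 to 43.8, and the adjusted p was 0.00103 in the edgeR test and 0.00208 in the fit without a filter and without 1 h replicate 3. Even at 1 h these genes stayed at 1.28 ± 0.567 and 1.36 ± 0.452 RPKM for FOXJ1 and FOXL2 (SD, n = 3 libraries each), and over both time points their levels lay at the 7.6 and 8.17 percentiles of the genes tested.

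The gene labelled FOXJ2 had 28.3, 33.9 and 33.5 CPM at 1 h, against 25.4, 27.2 and 27.9 CPM at time 0. The NCBI gene cited in its deposited description is named FOXJ3 in the RefSeq table, and its locus holds a 51-base miRNA gene on the opposite strand that had 0 to 2 counts. The groups did not overlap, with 1 h higher, as in 25.4% of all genes tested, yet the change of 0.25 on the log2 scale (SE 0.10) stayed just above the threshold (edgeR adjusted p = 0.0718). Without 1 h replicate 1 the adjusted p was 0.0263, the lowest over its alternatives, of which the highest was 0.366.

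FOXM1 had the lowest fitted change of the members, and it was not called. FOXM1 is made in dividing cells and switches on genes of mitosis. It had 127, 114 and 110 counts at 1 h and 75, 190 and 179 counts at time 0, that is 8.29, 7.28 and 6.43 CPM at 1 h and 5.53, 12.3 and 11.7 CPM at time 0. Time 0 replicate 1 was the lowest of all libraries, and the other time 0 libraries were the highest. The log2 fold change was -0.43 (95% interval -1.03 to 0.16, adjusted p = 0.245 in the edgeR test). Without time 0 replicate 1 it was -0.72 with an adjusted p of 0.00981, over alternatives that reached 0.558.

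Of 14 known FOXM1 target genes found and tested, 7 were lower at 1 h (12.0% of all genes were) and 0 were higher (19.8%). At an unadjusted p under 0.05 in the edgeR test, 10 were lower (18.6% of all genes were) and 0 higher (24.2%). Each alternative fit, DESeq2's included, also gave 0 higher. The lower genes were AURKA, CCNB2, CDC20, CENPE, CENPF, KIF2C and PLK1, which encode mitotic kinases, a cyclin, an activator of the anaphase-promoting complex and proteins of the kinetochore. CENPF had 273, 286 and 267 counts at 1 h and 300, 541 and 519 counts at time 0, and a log2 fold change of -0.82 (SE 0.16). PLK1, the Polo-like kinase, had 344, 318 and 361 counts at 1 h and 325, 528 and 582 counts at time 0, and a log2 fold change of -0.60 (SE 0.15). Time 0 replicate 1 was the lowest of the time 0 libraries for 12 of the 14 targets, as it was for FOXM1 itself. The summed level of the targets was 307, 323 and 319 CPM at 1 h, against 351, 426 and 433 CPM at time 0. Without time 0 replicate 1, 10 of the 14 were lower, as were 1035 of all 12652 genes tested in that fit. With each other library left out 6 to 8 were, 6 without time 0 replicate 2, time 0 replicate 3 or 1 h replicate 1.

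**Figure D4:**
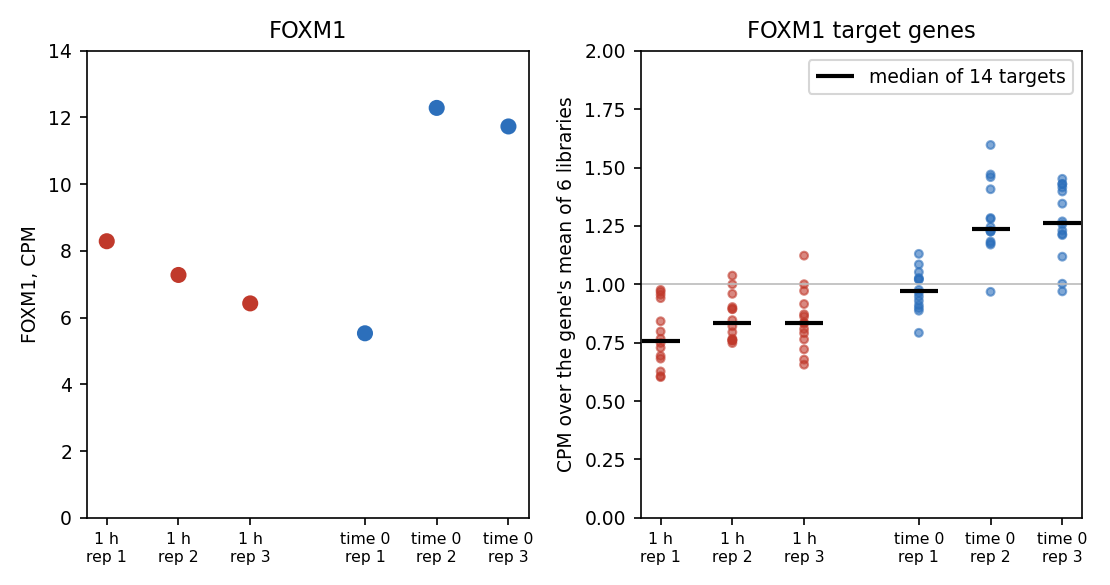
Left, CPM of FOXM1 in each library. Right, CPM of 14 FOXM1 target genes in each library, each divided by the mean of that gene over the 6 libraries, with the median as a bar. In both panels time 0 replicate 1 lies below the other time 0 libraries, at 5.53 CPM for FOXM1 against 12.3 and 11.7 CPM.

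The forkhead members FOXA1, FOXF1, FOXN1 and FOXN4 did not meet the count rule and had no more than 4 counts in any library. FOXN4, known from retinal progenitors, had 3 counts in 1 h replicate 3 and 0 in the other 1 h libraries, and 2 counts in time 0 replicate 2 and 0 in the other time 0 libraries. FOXA1 and FOXF1, factors of endoderm and of lateral mesoderm, had 2 to 4 and 0 to 2 counts at 1 h and at most 1 at time 0. In the edgeR fit without a filter 0 of these 4 genes were called, and 0 had an unadjusted p under 0.05.

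On the RPKM scale the members at 1 h ran, from the highest, SOX4 at 137, the gene labelled FOXP3 at 72.4, FOXO3 at 43.6, FOXK2 at 22.7, FOXP2 at 21.98, FOXN2 at 13.9, SOX13 and FOXP4 both at 12.4, FOXN3 at 12.1 and the gene labelled FOXJ2 at 10.7. The first 3 stood apart by more than their summed SDs. FOXK2 lay just above FOXP2 at 1 h, whereas at time 0 it had 13.7 ± 0.467, below the 15.4 ± 0.688 of FOXP2 (SD, n = 3 libraries each). FOXN2, SOX13, FOXP4 and FOXN3 did not differ beyond their spread at 1 h. At time 0 the order of the first 3 was the same, with 51.3, 41.3 and 16.7 RPKM, and FOXN2 was the lowest of these 10 genes. The 8 other members that met the count rule lay between 0.0935 (FOXJ1 at time 0) and 6.56 RPKM (FOXK1 at 1 h).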

How the data were processed

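Poly(A)-selected RNA of 6 chick lens explant libraries was sequenced as paired reads of 150 bases. The deposited table holds raw counts per gene, made by the authors' sequencing provider, besides a normalized signal column per library and deposited FPKM values. Per the labels the submitters' processing notes name HISAT2 2.0.5, StringTie 1.3.3b, featureCounts 1.5.0-p3 and DESeq2 1.20.0, with no role given. The genome build and the use of strand are not given in the sources used here. The table also holds the authors' fold changes and p-values, which were not used. Gene lengths are those in the deposited table, and coordinates are printed as it lists them.

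Counts were tested with edgeR 4.0.16 in R 4.3.3 (filterByExpr, TMM, robust glmQLFit, glmQLFTest, 2-sided), with Benjamini-Hochberg adjustment over 12391 genes. RPKM was computed as TMM-scaled CPM per kilobase. Replicate libraries differed by more than counting noise and were kept as separate samples. The test was run on simulated data in which a small part of the genes changed, with rises and falls equally likely. In the real data many more genes were called, and more of them higher than lower. The simulation does not cover that case. Alternatives were DESeq2 1.42.0, scaling by totals, upper quartile or RLE, other count filters, non-robust dispersion, a replicate block, a fold threshold and leaving out each library. A fit without a filter that also left out 1 h replicate 3 was chosen after seeing the data. Every member with 10 or more raw counts in at least 3 libraries was named, with library values for those called and for the 10 most abundant per length. The members and gene lists were chosen with earlier results of these data known. The RefSeq gene table (GRCg7b) matched 22 of the 28 members and was used for names only. Some results, including those of 1 member under the count rule, are not reported here.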

Additional observations from a re-analysis of the deposited data

How the results depend on the processing

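Of the 18 SOX and forkhead members that met the count rule, 11 were called higher at 1 h in the main fit. The same 11 genes were called with DESeq2, with each other scaling, with each other filter and with non-robust dispersion. FOXJ1 and FOXL2, which had to differ, were among these 11. Among members under the count rule, SOX8 and SOX21 were also higher with DESeq2 (adjusted p = 0.0041 and 0.0463) and in the fit without a filter. Of the 16 members that met the count rule at both time points 9 were higher in the main fit, where 19.8% of all genes were. Omitting 1 library at a time gave, of the 18 members, 9 to 12 higher and 0 to 1 lower ones, the 1 being FOXM1 without time 0 replicate 1. Requiring a log2 fold change of at least 1 left 5 members, and 896 of all genes. Without that requirement, 2450 of all genes were higher and 1488 lower in the main fit. With upper-quartile scaling 1901 were higher and 3400 lower, and the median log2 fold change moved to -0.14 from -0.01. With totals 2201 were higher and 2016 lower. With 1 library omitted, the log2 fold change of FOXO6 ranged from -0.0047 without 1 h replicate 3, where its sign turned (-0.0068 when the filter was dropped too), to 0.38 without 1 h replicate 1. That of SOX13, at -0.01, was -0.14 with upper-quartile scaling, and with 1 library omitted it ranged from -0.056 without 1 h replicate 3 to 0.027 without time 0 replicate 2, with 0.022 without 1 h replicate 1. With the replicate number as a block, 11 members were higher. The numbers are only names here, since the correlations of same-numbered deviations were -0.0765, 0.0149 and -0.0425 and 0 of 6 libraries correlated best with their own number.

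With 3 libraries in each group, small changes such as that of FOXJ2 fall near the threshold, and genes under about 10 counts give wide ratios. As the use of strand is not stated, reads of genes that overlap on opposite strands cannot be told apart. Pooling of 6 explants hides variation between lenses.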

Other observations

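Other rows of the table carry the same DNA-binding domains without a SOX or forkhead symbol. Among those with an HMG box, HBP1, a repressor of cell cycle genes, was higher at 1 h, with 49.7 CPM at 1 h and 20.3 CPM at time 0 and a log2 fold change of 1.296. HMGB1, HMGB2 and HMGB3, abundant chromatin proteins that bend DNA, were lower, with log2 fold changes of -0.24, -0.39 and -0.30. Of 4 HMG-box rows that have no symbol, 2 were tested and both were higher (19.8% of all genes were). ENSGALG00000054923 had 138 CPM at 1 h and 72.8 CPM at time 0, and ENSGALG00000016397 had 63.7 CPM at 1 h and 26.6 CPM at time 0. Of 10 forkhead-domain rows without a symbol, 2 were tested. The more abundant, ENSGALG00000028153, had 742 CPM at 1 h and 845 CPM at time 0, with an adjusted p of 0.225 in the edgeR test, and ENSGALG00000051259 had 33.6 CPM at 1 h and 30.7 CPM at time 0, with an adjusted p of 0.370. These rows were chosen after their values were seen, and no name is given to them in the table.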
